A study of Homo sapiens with 2 samples.

Results

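Serine synthesis and the folate one-carbon pathway were examined through 10 genes, PHGDH, PSAT1, PSPH, SHMT1, SHMT2, MTHFD1, MTHFD1L, MTHFD2, MTHFD2L and ALDH1L2, chosen by gene symbol. All 10 were found once in each of the 2 deposited gene tables, which hold 25277 rows, and all 10 reached an FPKM of 1 in WT or PERK-KO cells, the filter used for comparisons. FPKM is the number of sequenced fragments scaled for the length of the transcript and for sequencing depth, which puts genes of different length on one scale. Between the samples it leaves small shifts, with a median log2 ratio of 0.04 over all genes and a running median over transcript length from -0.10 to 0.30 at the members. RNA came from HEK293 cells, a human embryonic kidney line, either WT or PERK-KO, at passage 15 to 20. Both genotypes had been kept for 12 h in OXPHOS medium, in which galactose and pyruvate replace glucose, and no sample in glucose medium was analysed here. PERK-KO cells were made with CRISPR/Cas9 and grown up from single cells, and which guide and which clone was sequenced is not given. An effect of losing PERK therefore cannot be told apart from other differences between the lines. There was 1 sample per genotype, with no replicates, and no difference could be tested.

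PHGDH, PSAT1 and PSPH make serine from 3-phosphoglycerate, an intermediate of glycolysis. Serine hands a carbon unit to tetrahydrofolate, a step catalysed by SHMT1 in the cytosol and by SHMT2 in mitochondria, and MTHFD-family enzymes then interconvert the folate forms that are used to make purines, thymidylate and methionine. In proliferating cells the mitochondrial arm usually releases formate, which the cytosolic arm takes up again. ATF4, a transcription factor whose translation increases when PERK or another kinase phosphorylates eIF2α, is known to activate several of these genes.

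Promoters are shown for the members that differed by more than 1.5-fold between the genotypes and were matched to RefSeq, together with SHMT1, the member with the lowest ratio of PERK-KO to WT. Of the 10 genes, 7 were matched to RefSeq promoters (GRCh38.p14, 300 bases around the transcription start). PSPH, SHMT2 and ALDH1L2 were not matched. Motifs were searched on both strands and are in capitals. They were TGATGNAA (the composite site bound by ATF4 with C/EBP proteins), TGACGT (the core of ATF and CREB sites), CCAAT (the box bound by NF-Y) and CCGGAAG (the core of GABP sites).
PHGDH, chr1:119711684-119711983, plus strand: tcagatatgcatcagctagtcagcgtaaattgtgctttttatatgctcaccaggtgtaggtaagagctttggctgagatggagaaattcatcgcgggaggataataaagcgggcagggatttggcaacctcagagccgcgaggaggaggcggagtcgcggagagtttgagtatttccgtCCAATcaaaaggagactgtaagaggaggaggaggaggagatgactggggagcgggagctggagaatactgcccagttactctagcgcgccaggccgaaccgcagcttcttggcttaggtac
PSAT1, chr9:78296875-78297174, plus strand: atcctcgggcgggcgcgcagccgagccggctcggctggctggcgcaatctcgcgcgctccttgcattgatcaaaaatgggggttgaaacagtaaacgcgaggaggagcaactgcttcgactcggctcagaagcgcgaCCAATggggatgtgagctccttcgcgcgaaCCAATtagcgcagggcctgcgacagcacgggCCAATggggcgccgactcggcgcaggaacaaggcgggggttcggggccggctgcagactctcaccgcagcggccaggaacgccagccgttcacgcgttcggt
MTHFD2, chr2:74198365-74198664, plus strand: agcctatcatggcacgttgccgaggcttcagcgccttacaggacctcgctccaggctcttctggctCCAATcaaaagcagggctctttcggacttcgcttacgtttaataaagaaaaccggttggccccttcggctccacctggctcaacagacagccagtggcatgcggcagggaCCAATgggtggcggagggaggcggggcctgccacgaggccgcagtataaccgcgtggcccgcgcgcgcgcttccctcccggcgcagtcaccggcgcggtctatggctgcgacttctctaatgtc
MTHFD1L, chr6:150866236-150866535, plus strand: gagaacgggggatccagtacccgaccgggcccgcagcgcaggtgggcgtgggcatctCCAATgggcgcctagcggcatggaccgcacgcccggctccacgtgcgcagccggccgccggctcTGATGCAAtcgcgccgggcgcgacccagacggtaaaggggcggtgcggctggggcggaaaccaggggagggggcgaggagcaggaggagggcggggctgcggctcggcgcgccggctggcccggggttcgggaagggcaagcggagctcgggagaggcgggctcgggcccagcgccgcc
SHMT1, chr17:18363501-18363800, minus strand: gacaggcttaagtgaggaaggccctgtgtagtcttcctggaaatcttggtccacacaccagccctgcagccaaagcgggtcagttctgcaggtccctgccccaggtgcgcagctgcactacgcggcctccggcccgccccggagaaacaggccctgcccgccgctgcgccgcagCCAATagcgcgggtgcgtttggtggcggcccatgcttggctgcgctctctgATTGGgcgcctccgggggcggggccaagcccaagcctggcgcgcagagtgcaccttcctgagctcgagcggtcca

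TGATGNAA was found in 1 of the 7 matched genes, MTHFD1L, as TGATGCAA starting 129 bases before the transcription start, and, counted by promoter, in 3 of the 11 listed for these genes and 3.62% of all 35116 promoters of this length. MTHFD1L has 4 listed promoters, and the 3 that lie close together all hold this site, while the distant one does not. CCAAT was found in 6 of the 7 genes, all but MTHFD2L, and by promoter in 8 of 11, against 34.6% of all promoters, with 3 of the 8 being overlapping windows of MTHFD1L. PSAT1 has 3 copies, starting 113, 83 and 52 bases before the start, and MTHFD2 has 2, at 184 and 74 bases. CCGGAAG was found in MTHFD2L alone, in 1 of its 2 listed promoters and so 1 of 11, against 10.3% of all promoters, and TGACGT in no matched member, against 7.98%. These are matches of letters in a short window and were chosen after the expression values had been seen.

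Before the members, the targeted gene and the labels were checked. EIF2AK3, which encodes PERK, was at 5.61 FPKM in WT cells, with deposited limits from 5.11 to 6.12, and at 3.89 (3.44 to 4.34) in PERK-KO cells. It was thus lower but not absent, and an FPKM over the whole gene does not report on a small edit. Of 6 markers of the HEK293 line, VIM, CDH2 and NEFL were expressed in both samples, and PAX2 was under 1 FPKM in both. IRS4 and NEFM differed widely between the lines, with IRS4 at 0.121 in WT and 27.1 in PERK-KO cells and NEFM at 0.662 and 5.21. The part of such line differences in the results below was not tested. The 8 markers of blood, endothelium, liver, fibroblasts and differentiated kidney summed to 7.61 FPKM in WT and 7.26 in PERK-KO cells. Most of this was COL1A1 of fibroblasts, at 4.97 and 4.62. PECAM1 was at 1.35 and 1.36, NPHS1 at 1.18 and 1.10, and PTPRC at 0.108 and 0.180. CD3E, CDH5, UMOD and ALB were at 0 in both samples. ATF4 mRNA was at 342 FPKM (326 to 358) in WT and 506 (483 to 528) in PERK-KO cells, 1.48-fold higher with limits that did not overlap. With the running median over transcript length subtracted, the log2 fold change of ATF4 was 0.76 instead of 0.56, past 1.5-fold. That of EIF2AK3 was -0.70 instead of -0.53, past 1.5-fold in the lower direction.

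Relative to WT cells, 5 of the 10 members exceeded a 1.5-fold higher level in PERK-KO cells and 0 of 10 a 1.5-fold lower level. The 5 were PHGDH, PSAT1, MTHFD2, MTHFD1L and ALDH1L2, which span serine synthesis and the mitochondrial folate arm. Among all 14594 genes past the filter, 10.1% were higher and 7.54% lower by this rule. When the deposited confidence limits were also required not to overlap, the 5 members were still counted as higher, against 7.9% of all genes, and none as lower, against 5.39%. Limits were apart for 8 of the 10 members in all, against 44.8% of genes. This share also depends on how wide the limits are. In WT cells their half-width was 3.32% to 8.33% of the FPKM in all members but MTHFD2L and ALDH1L2. The median over genes of at least 1 FPKM was 8.83%, and the part of width in the count was not tested. The median log2 fold change of the 10 members was 0.50, compared with 0.04 over all genes. Summed over the 10 members, FPKM was 436 in WT and 615 in PERK-KO cells.

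**Figure D1:**
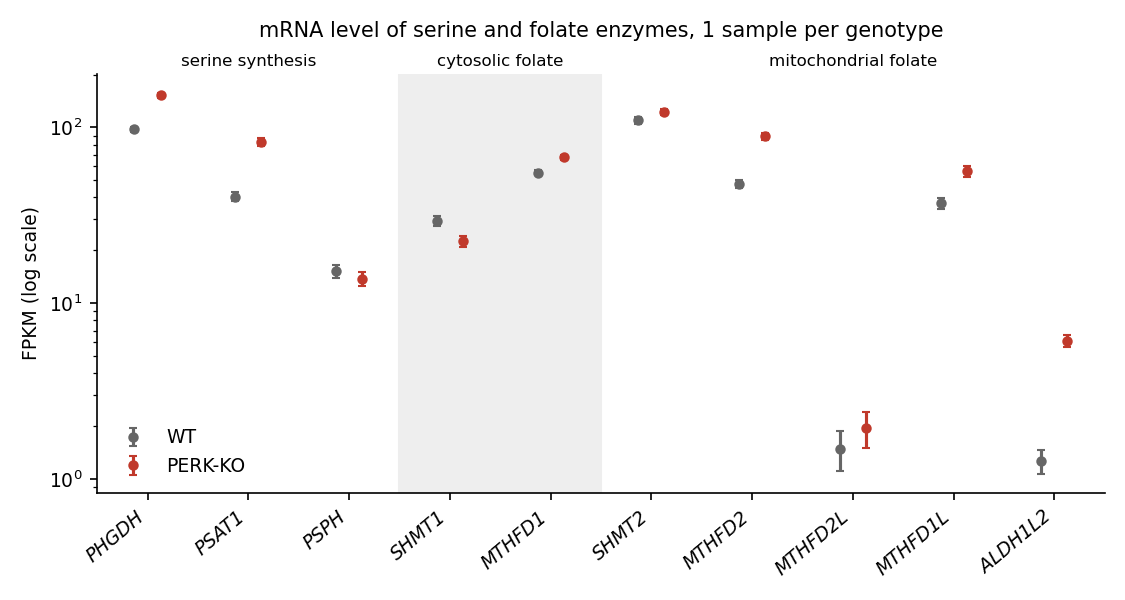
FPKM of each member (log axis) in the WT sample (grey) and the PERK-KO sample (red), with the deposited confidence limits as bars, ordered by role. PHGDH and SHMT2 were near or above 100 FPKM in both samples, while MTHFD2L and ALDH1L2 were under 10.

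Levels within a sample covered a wide range. In WT cells the order was SHMT2, PHGDH, MTHFD1, MTHFD2, PSAT1, MTHFD1L, SHMT1, PSPH, MTHFD2L and ALDH1L2, and limits overlapped only between the neighbours PSAT1 and MTHFD1L and between MTHFD2L and ALDH1L2. In PERK-KO cells PHGDH was first, MTHFD2 and PSAT1 stood above MTHFD1, and ALDH1L2 stood above MTHFD2L. There the only neighbours with overlapping limits were MTHFD2 and PSAT1.

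The first enzymes of serine synthesis, PHGDH and PSAT1, were higher in PERK-KO cells, and the last, PSPH, was not. PHGDH, the dehydrogenase that commits 3-phosphoglycerate to serine, was at 97.7 FPKM (94.4 to 101) in WT and 152 (148 to 157) in PERK-KO cells. The limits were apart, and the PERK-KO value was 1.56-fold higher, with a counting interval of 1.49 to 1.63. This interval combines the deposited limits of both samples. It covers the error within 1 library each, counting error included, but not the variation between cultures. PSAT1, the aminotransferase of the next step, was at 40.4 (38.0 to 42.9) and 82.7 (78.2 to 87.2), which is 2.05-fold higher (1.89 to 2.22). PSPH, the phosphatase that completes the pathway, was at 15.2 (14.0 to 16.5) in WT and 13.8 (12.5 to 15.1) in PERK-KO cells. Its limits overlapped, so a difference was not detectable with limits of this width. The counting interval of the ratio of PERK-KO to WT for PSPH, 0.799 to 1.03, lies below that of both other enzymes.

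The balance among the 3 serine enzymes therefore differed between the lines. PHGDH was at 6.40 times PSPH (5.85 to 7.01) in WT cells and at 11.0 times (9.99 to 12.1) in PERK-KO cells. PSAT1 was at 2.65 times PSPH (2.39 to 2.94) and at 5.99 times (5.38 to 6.67). PHGDH stood at 2.41 times PSAT1 (2.25 to 2.59) in WT cells and at 1.84 times (1.73 to 1.96) in PERK-KO cells, since PSAT1 differed by more than PHGDH did.

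The cytosolic folate enzymes differed in opposite directions, and neither passed 1.5-fold. SHMT1, the cytosolic serine hydroxymethyltransferase, was at 29.5 (27.7 to 31.3) in WT and 22.6 (21.0 to 24.3) in PERK-KO cells, 1.30-fold lower (1.18 to 1.44). MTHFD1, the trifunctional cytosolic enzyme that takes up formate and supplies formyl and methylene folates, was at 55.4 (53.5 to 57.2) and 67.5 (65.4 to 69.7). It was 1.22-fold higher (1.16 to 1.28). For both genes the limits of the samples did not overlap. SHMT1 was the only member with non-overlapping limits that was lower in PERK-KO cells. The SHMT1 locus shares 184 bases with SMCR8, which was at 5.05 and 7.31 FPKM, and whether strand was used in counting is not given in the sources used here.

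All 5 mitochondrial enzymes had higher values in PERK-KO than in WT cells, by amounts from 1.11-fold to 4.84-fold. For 4 of them the limits were apart, as they were for 44.8% of all genes. A ratio above 1 of any size was found for 53.6% of all genes. SHMT2, the mitochondrial serine hydroxymethyltransferase, was at 110 (105 to 115) in WT and 122 (117 to 128) in PERK-KO cells, 1.11-fold higher (1.05 to 1.18), with limits that did not overlap. Its locus shares 33 bases with NDUFA4L2, which was at 1.91 and 0.746 FPKM. MTHFD2, the mitochondrial dehydrogenase and cyclohydrolase, was at 47.6 (45.0 to 50.2) and 89.2 (85.0 to 93.4), 1.87-fold higher (1.74 to 2.01). MTHFD2 has 7 annotated pseudogenes and PSAT1 has 4, none with a row in the tables, and sharing of reads with them was not tested. MTHFD1L, which releases formate from mitochondria, was at 37.03 (34.2 to 39.8) and 56.2 (52.4 to 60.0). Its ratio of 1.52 was close to the threshold, with a counting interval of 1.37 to 1.68, and it was under 1.5-fold when the values were rescaled to a common median or 75th percentile, or adjusted for transcript length.

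ALDH1L2, which oxidises formyl folate in mitochondria and yields NADPH, showed the largest ratio of the 10. It was at 1.27 (1.07 to 1.46) in WT and 6.14 (5.63 to 6.65) in PERK-KO cells, 4.84-fold higher (4.06 to 5.76). By counting error alone, limits of this width correspond to 170 and 585 fragments. The fold change stood at the 99.0th percentile of all genes, compared with 96.9 for PSAT1, 96.0 for MTHFD2, 91.6 for PHGDH and 90.3 for MTHFD1L. MTHFD2L, the other mitochondrial dehydrogenase and cyclohydrolase, was at 1.49 (1.12 to 1.87) and 1.97 (1.51 to 2.42). By counting error alone its limits correspond to 63 and 74 fragments. The limits overlapped, and a difference could not be seen with limits this wide. MTHFD2 was at 31.9 times MTHFD2L (24.6 to 41.3) in WT and at 45.4 times (35.8 to 57.6) in PERK-KO cells.

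**Figure D2:**
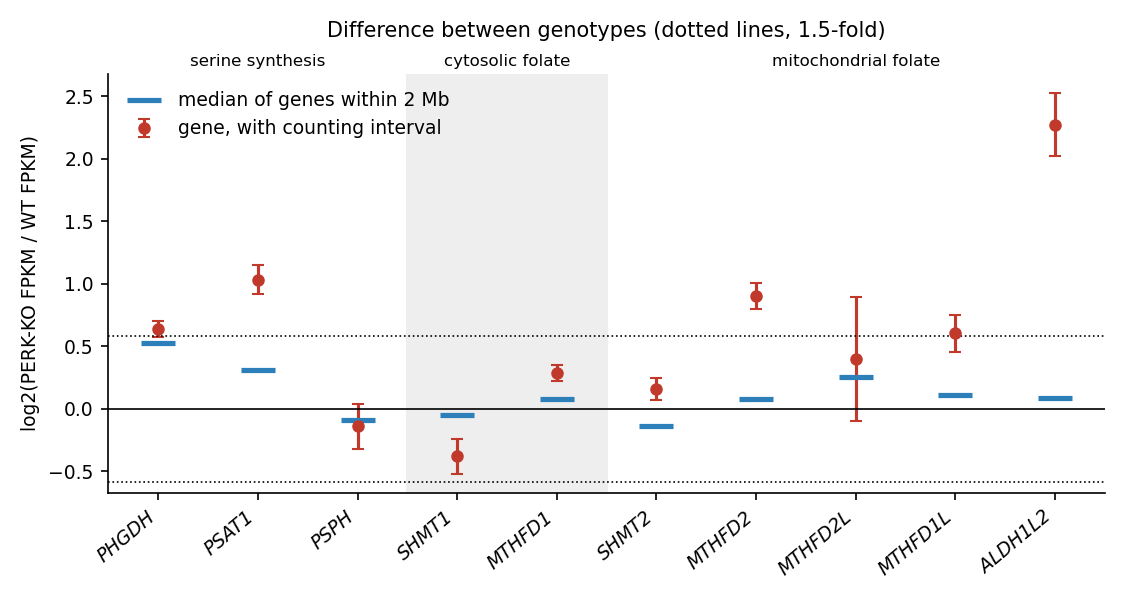
Log2 ratio of PERK-KO to WT FPKM for each member (red, with the counting interval) and the median over expressed genes within 2 Mb on the same chromosome (blue). PHGDH at 0.64 lies close to its neighbours at 0.53, whereas PSAT1, MTHFD2 and ALDH1L2 lie above theirs.

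Compared as pairs, the mitochondrial enzyme had the higher ratio of PERK-KO to WT in all 5 pairs, although with a pseudocount of 1 the pair of MTHFD2L and MTHFD1 had the opposite direction. These are not 5 separate comparisons, since MTHFD1 is the partner in 3 pairs and ALDH1L1, the partner in another, was below the filter. In the 4 pairs other than MTHFD2L with MTHFD1, the counting interval of the difference was above 0. For SHMT2 against SHMT1 the log2 fold changes were 0.15 and -0.38, a difference of 0.54 (0.37 to 0.70). SHMT2 made up 78.9% (77.6 to 80.1) of the summed FPKM of the pair in WT and 84.4% (83.2 to 85.5) in PERK-KO cells. For MTHFD2 against MTHFD1 the difference was 0.62 (0.50 to 0.74), and the order of the levels turned over. MTHFD2 stood at 0.860 times MTHFD1 (0.807 to 0.917) in WT cells and at 1.32 times (1.248 to 1.40) in PERK-KO cells. For MTHFD1L against MTHFD1 the difference was 0.32 (0.15 to 0.48), and MTHFD1 had the higher level of the pair in both samples. MTHFD2L against MTHFD1 gave 0.11 (-0.39 to 0.61), which does not set the pair apart.

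The fifth pair was ALDH1L2 with its cytosolic counterpart ALDH1L1. ALDH1L1 was under the filter in both samples, at 0.658 (0.436 to 0.880) in WT and 0.246 (0.0887 to 0.404) in PERK-KO cells. ALDH1L2 was 65.8% (57.1 to 73.6) of the pair in WT and 96.1% (92.9 to 97.9) in PERK-KO cells, and their log2 fold changes differed by 3.69 (2.62 to 4.77), which rests in part on the low ALDH1L1 values. Summed over the members of each compartment, mitochondrial folate enzymes came to 197 FPKM in WT and 276 in PERK-KO cells, and cytosolic folate enzymes, SHMT1 and MTHFD1, to 84.9 and 90.2. The mitochondrial part of this sum was 69.9% and 75.4%. It sets 5 mitochondrial genes against 2 cytosolic ones, without ALDH1L1, so its size depends on how many genes each side holds. The median log2 fold change was 0.60 for the 5 mitochondrial enzymes, -0.05 for the 2 cytosolic folate enzymes and 0.64 for the 3 serine enzymes.

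**Figure D3:**
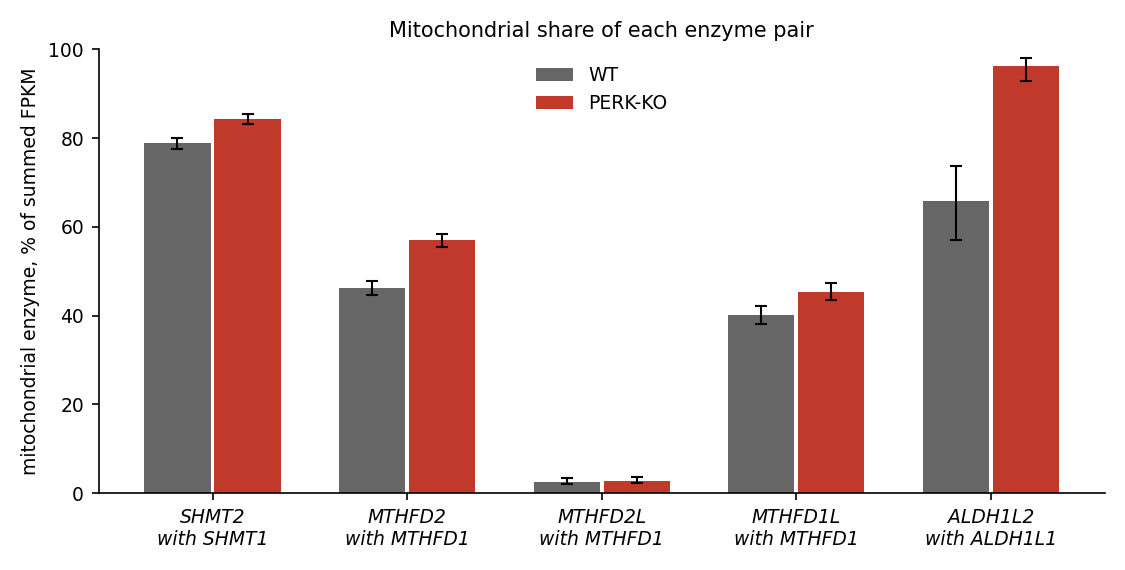
Share of the mitochondrial enzyme in the summed FPKM of each pair, in percent, for WT (grey) and PERK-KO (red), with counting intervals. The share was higher in PERK-KO cells in 4 pairs with intervals apart, while those of the MTHFD2L pair (2.62% and 2.83%) overlap and turn direction with a pseudocount of 1.

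Position on the chromosome was examined because it played no part in choosing the members, and was added after the values had been seen. For PHGDH on chromosome 1 (120254419 to 120286849, GRCh37), the 10 expressed genes within 2 Mb had a median log2 fold change of 0.53, and PHGDH at 0.64 was above this by 0.11. Of these neighbours, 4 exceeded a 1.5-fold higher level, against 10.1% of all genes, and 3 had a larger ratio than PHGDH. Over the 27 genes within 5 Mb the median was 0.30. PSAT1 on chromosome 9 (80912059 to 80945009) had 8 neighbours within 2 Mb with a median of 0.31, and exceeded it by 0.73. Of these 8, 2 exceeded a 1.5-fold higher level. Around the other members with a difference over 1.5-fold, the neighbours had medians of 0.08 for MTHFD2 on chromosome 2 (74425690 to 74442424), 0.11 for MTHFD1L on chromosome 6 (151186815 to 151423023) and 0.09 for ALDH1L2 on chromosome 12 (105413562 to 105478341). MTHFD2, MTHFD1L and ALDH1L2 exceeded these by 0.83, 0.49 and 2.19. Single neighbours differed in both directions, and 5 of 42 near MTHFD2, 2 of 26 near MTHFD1L and 3 of 21 near ALDH1L2 exceeded a 1.5-fold higher level. The share over all genes was 10.1%. Whether a difference in gene copy number between the lines plays a part in the PHGDH or PSAT1 values was not tested.

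**Figure D4:**
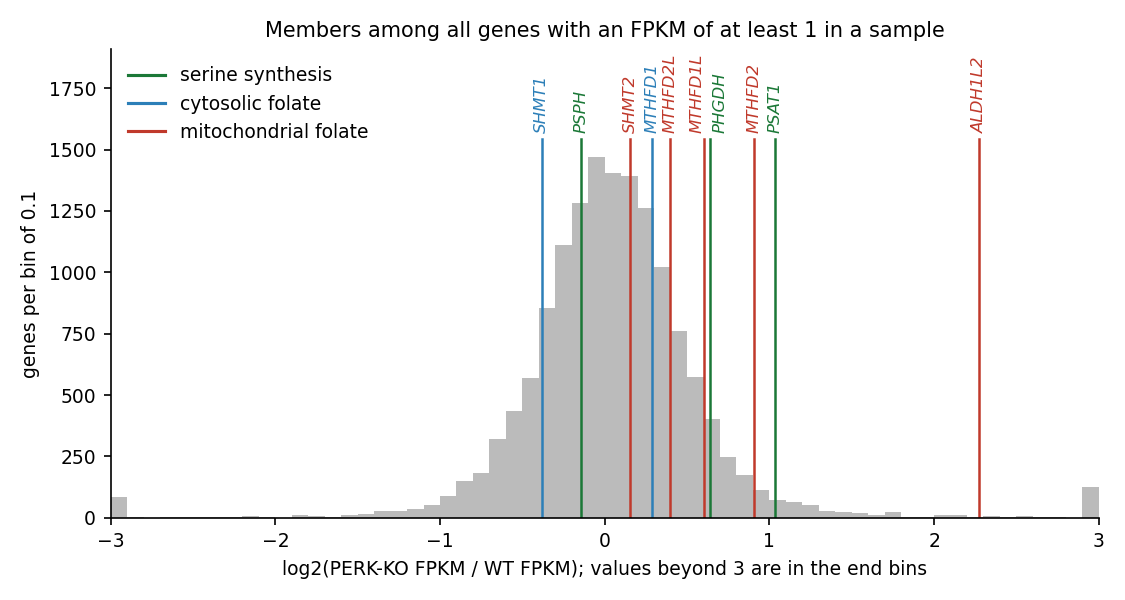
Number of genes in bins of log2 ratio of PERK-KO to WT FPKM, over 14594 genes, with vertical lines for the 10 members coloured by role. SHMT1 and PSPH lie left of 0, SHMT2 and MTHFD1 lie within the central mass, and ALDH1L2 lies far to the right.

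Beyond the members, 43 other genes of one-carbon metabolism were in the tables, of which 35 passed the filter, 2 exceeded the 1.5-fold threshold upwards in PERK-KO cells and 2 downwards, all with limits apart. Both counts, 2 of 35, are near or below the shares over all genes, 10.1% higher and 7.54% lower, or 7.9% and 5.39% with limits apart. Their median log2 fold change was 0.06. The 2 that were higher were CBS and CTH of transsulfuration, which makes cysteine from serine and homocysteine. CBS, which joins serine to homocysteine, was at 12.9 (11.8 to 14.0) in WT and 41.6 (39.2 to 44.1) in PERK-KO cells, 3.24-fold higher (2.92 to 3.59). CTH, which releases cysteine from the product, was at 3.17 (2.58 to 3.76) and 8.84 (7.75 to 9.93), 2.78-fold higher (2.23 to 3.48). The methionine cycle genes listed with them, MAT2A, MAT2B and AHCY, had ratios from 0.928 to 1.09 with overlapping limits.

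The 2 that were lower were SDSL and SARDH. SDSL, a serine dehydratase-like enzyme, was at 15.2 (13.6 to 16.8) in WT and 8.38 (7.10 to 9.66) in PERK-KO cells, 1.81-fold lower. SARDH, the mitochondrial sarcosine dehydrogenase, which passes a carbon unit to folate, was at 6.40 (5.70 to 7.11) and 3.90 (3.33 to 4.47), 1.64-fold lower. SDS, BHMT, DMGDH, FOLR2 and FOLR3 were listed at 0 in both samples.

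**Figure D5:**
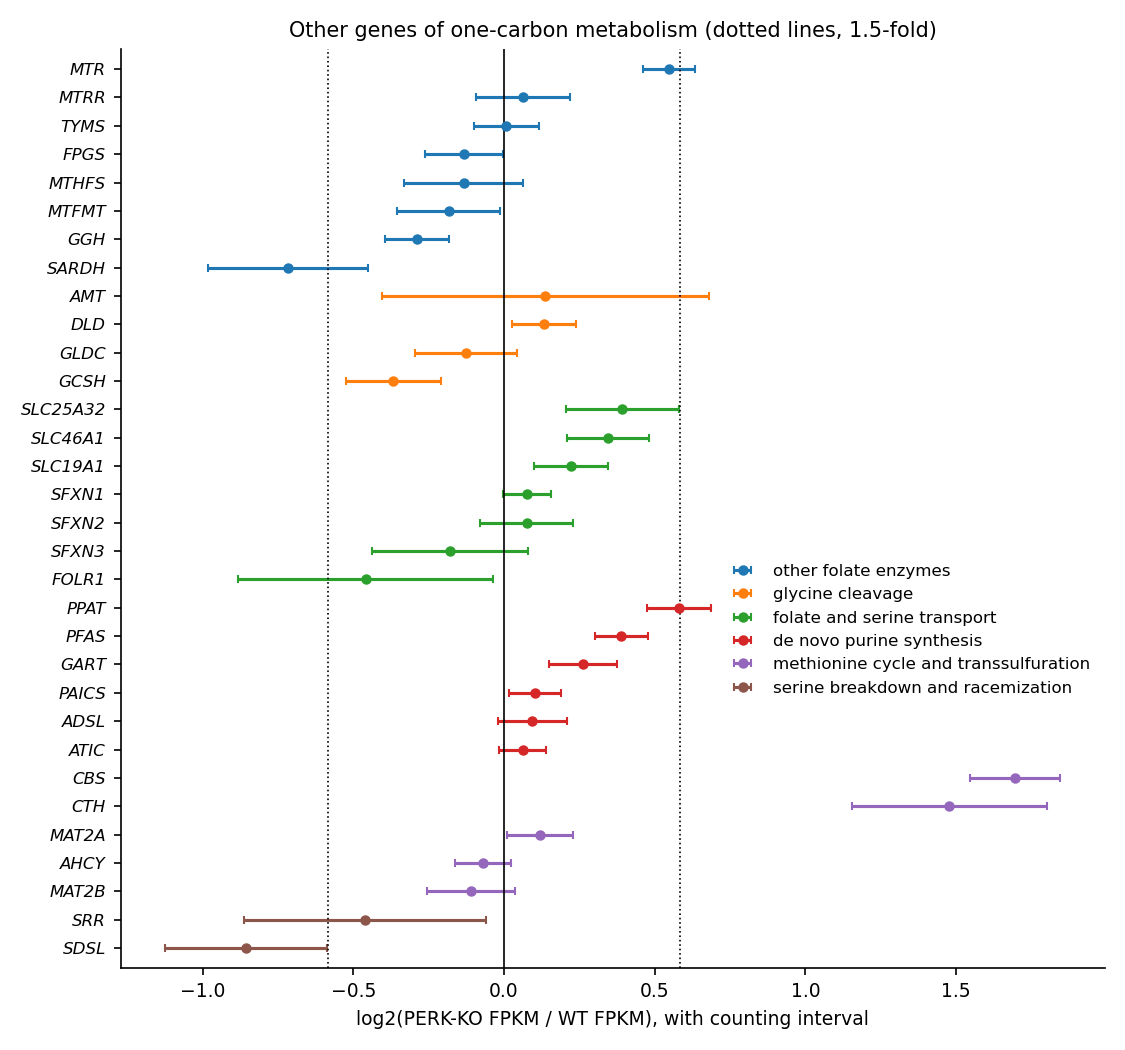
Log2 ratio of PERK-KO to WT FPKM, with counting intervals, for other genes of one-carbon metabolism that passed the filter, coloured by list. CBS and CTH lie beyond the upper 1.5-fold line, and SARDH and SDSL beyond the lower one.

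Among the other folate enzymes, 10 of the 11 that passed the filter lay within 1.5-fold. A ratio above 1 was found for 4 of the 11, against 53.6% of all genes, and a ratio below 1 for 7. Their median log2 fold change was -0.13. TYMS, which makes thymidylate, was at 136 (129 to 143) and 137 (130 to 144), with overlapping limits. MTHFS, which returns formyl folate to the active pool, and MTFMT, which formylates the mitochondrial initiator tRNA, had ratios of 0.911 and 0.881, both with overlapping limits. TYMS turned direction under rescaling. MTR, the methionine synthase, was at 9.77 (9.33 to 10.2) and 14.3 (13.7 to 14.8), 1.46-fold higher. Its log2 fold change of 0.55 was lowered to 0.21 once the running median over transcript length was subtracted.

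The glycine cleavage system, which supplies mitochondrial folate from glycine, had no gene past 1.5-fold. GLDC was at 9.14 and 8.37 and AMT at 1.73 and 1.90, with overlapping limits, and GCSH was at 42.7 (39.6 to 45.7) and 33.1 (30.4 to 35.8), 1.29-fold lower. None of the 7 expressed transport genes passed 1.5-fold either. SFXN1, the mitochondrial serine carrier, was at 48.1 and 50.7 with overlapping limits and turned direction under the length adjustment. SLC25A32, the mitochondrial folate carrier, was at 10.1 (9.12 to 11.0) and 13.2 (12.04 to 14.4), 1.31-fold higher. SLC19A1, the reduced folate carrier of the plasma membrane, was 1.17-fold higher. The length adjustment lowered the log2 fold change of SLC19A1 from 0.22 to 0.031.

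Purine synthesis consumes formyl folate at steps catalysed by GART and ATIC. All 6 purine genes had a ratio above 1, as did 53.6% of all genes. Limits were apart for 3 of the 6, near the share of 44.8% over all genes. The ratios of PAICS and ADSL were below 1 once the running median over transcript length was subtracted. GART was at 35.2 (33.2 to 37.2) and 42.2 (39.9 to 44.5), and ATIC at 76.1 and 79.4 with overlapping limits. PPAT, which catalyses the committing step, differed by a log2 fold change of 0.58 (0.47 to 0.69), just under the 1.5-fold threshold.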

How the data were processed

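RNA sequencing of 1 WT and 1 PERK-KO sample of HEK293 cells was re-analysed. The authors isolated poly(A) mRNA and mapped the reads to GRCh37/hg19 with TopHat2 2.0.13. Cufflinks 2.2.1 and Cuffdiff gave the deposited FPKM, with 95% confidence limits for each gene. The tables hold no read counts, so the depth of a sample is unknown. Fold changes are PERK-KO over WT with nothing added to the values. Genes had to reach 1 FPKM in either sample, and were called past 1.5-fold, close to the study's own threshold. The deposited limits were taken as 2 SD and combined in quadrature on the log scale for ratios. They cover error within 1 library, which need not be counting error alone. In WT cells their half-width was 7.54% of the FPKM for MTHFD1L and 6.22% for SHMT1, which has a lower FPKM and a shorter transcript. Deposited starts count from 0 and 1 was added. Transcript lengths came from canonical transcripts of GENCODE 44 on GRCh37, found for 10 members and 85.3% of genes past the filter. Promoters came from RefSeq on GRCh38.p14. Pseudogenes are annotated for PSAT1 (4), MTHFD2 (7), PSPH, SHMT1 and MTHFD1 (1 each), without rows in the tables, and sharing of reads was not tested.

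Members, gene lists, motifs and alternatives were chosen with earlier results of these data known, and the text names all members, every listed gene past 1.5-fold with limits apart, and fixed partner genes. Some listed genes are counted but not reported here. MTR, PPAT, MAT2B and AHCY are named outside this rule. Alternatives were other filters, pseudocounts of 0.1 and 1, rescaling, subtraction of a running median over transcript length (501 genes), summing rows of the same name, other thresholds and separate limits. Neighbour and motif counts were added after values had been seen. Calculations were tested on simulated data. Python 3.11.15 with numpy 2.4.6, pandas 2.3.3 and matplotlib 3.10.9 was used.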

Additional observations from a re-analysis of the deposited data

How the results depend on the processing

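No paired analysis was possible because WT and PERK-KO cells were each sequenced once, and no replicate could be left out. The 5 members higher in PERK-KO cells became 4 without MTHFD1L under either rescaling and under the length adjustment, and 2 (PSAT1 and ALDH1L2) at a threshold of 2-fold. Of the genes tested, 8.84% were higher after rescaling to a common median and 9.31% after rescaling by the 75th percentile. The share was 6.12% with the length adjustment and 3.28% at 2-fold. In the same order, 8.76%, 8.29%, 4.96% and 2.08% of the genes were lower, and 0 members. At the lower threshold tried, 6 of the 10 members were counted as higher, against 24.3% of all genes. There 1 member, SHMT1, was counted as lower, against 18.4% of all genes. The median log2 fold change of the mitochondrial members was 0.75 with an FPKM of at least 5 required in a sample, which leaves out MTHFD2L, and that of the serine enzymes 0.74 with the running median over transcript length subtracted, against 0.60 and 0.64. A pseudocount of 1 lowered the log2 fold change of ALDH1L2 from 2.27 to 1.65, its difference from ALDH1L1 to 2.07 and its share in PERK-KO cells to 85.1%. It turned the difference of MTHFD2L and MTHFD1 to -0.0309 and moved the share of MTHFD2L to 4.23% in WT and 4.15% in PERK-KO cells. The length adjustment lowered ALDH1L2 to 1.97 and MTHFD2 to 0.76 and turned the direction of MTRR, SFXN1, SFXN2, PAICS and ADSL, and both rescalings that of TYMS, none of them past 1.5-fold. Over all genes, the 1481 higher and 1100 lower became 3298 and 2555 without a filter, 872 and 702 with at least 5 FPKM, 944 and 767 with a pseudocount of 1, 761 and 617 with the length adjustment, 479 and 304 at 2-fold, and 3543 and 2691 at the lower threshold. These counts are out of 14594 genes in the main setting, 19616 without a filter, 10355 with at least 5 FPKM and 12439 with the length adjustment. The stricter filters and the length adjustment gave no value for ALDH1L2 against ALDH1L1. No member changed direction under the alternatives run. For MTHFD2L, ALDH1L1 and other genes near 1 FPKM, the width of the limits restricts what can be seen.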
